A study of Mus musculus with 6 samples.

Results

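The 10 genes described here encode lipases, a lipase co-activator, coat proteins and triglyceride enzymes of lipid droplets. They were the rows of the expression table whose symbol was Pnpla2, Pnpla3, Pnpla6, Pnpla7, Pnpla8, Abhd5, Plin2, Plin3, Dgat1 or Dgat2, 10 of 23235 gene symbols. All 10 had more than 1 FPKM (sequenced fragments relative to transcript length and library size) in at least 1 sample and so passed the filter that kept 12523 rows. The set was selected on a measured value, the low FPKM of Pnpla3 in the same Pabpn1-null samples, with its relatives and partners beside it. The values of the 10 genes are therefore given as a description and were not tested.

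Growing oocytes of C57BL/6 mice (C57BL/6J in the methods) were sequenced, with 3 WT samples and 3 Pabpn1-null samples. The null mice carried floxed Pabpn1 alleles and Gdf9-Cre (Pabpn1fl/fl;Gdf9-Cre), a transgene whose promoter is active in oocytes from the primordial follicle on, so that the gene was deleted in oocytes and not in the cells around them. The labels name the genotypes PABPN1-WT and PABPN1-GDF9, and neither they nor the methods give the age at collection, any treatment, or whether WT mice carried Cre. Controls were littermates. Each sample was a lysate of 10 pooled oocytes, reverse transcribed from oligo-dT primers, and whether the samples of a genotype came from separate mice is not stated. Since each sample was a bulk lysate, fewer cells with a transcript and less transcript per cell cannot be told apart.

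A lipid droplet is a core of triglycerides and sterol esters under a phospholipid monolayer that carries proteins. Triglycerides are made from diacylglycerol by the acyltransferases Dgat1 and Dgat2, covered by perilipins, and broken down again by lipases, of which Pnpla2 takes the first fatty acid off once it is activated by Abhd5. Oocytes of mammals hold such droplets and can oxidise the fatty acids they release in mitochondria.

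The targeted gene Pabpn1, which encodes a nuclear protein that binds poly(A) tails, ranged from 21.8 to 33.4 FPKM in WT and from 0.595 to 1.37 FPKM in null oocytes. Total FPKM was 676077 to 739244 per WT sample and 597103 to 638185 per null sample, and the counts behind the FPKM values are unknown. The summed level of 10 oocyte markers, as deposited, was 13978 to 16907 FPKM in WT and 17092 to 18681 FPKM in null oocytes. Of the 10, 6 were called higher and Figla lower, where 27.9% of all tested rows were called higher and 20.2% lower. A scaling described below multiplies WT samples 2 and 3 by 1.42 and 1.31 and null samples by 0.833, against the direction of this difference. Marker sums and calls under that scaling are not given. The summed level of 10 granulosa cell markers was 31.2 to 38.6 and 30.9 to 42.0 FPKM, with Inha higher and Cyp19a1 lower among the 6 tested. The 8 adipocyte markers summed to at most 0.754 FPKM in a WT sample and 2.64 FPKM in a null sample, Plin1 was listed at 0 in all 6 samples, and Adipoq was higher. The 9 theca and stromal markers summed to at most 1.97 FPKM in a sample. Star was the single one tested and was higher. The other markers of that list were under 1 FPKM, with lower means in null oocytes except for Col3a1. Both Star and Adipoq passed the filter only through null samples, which left little room for another call. Endothelial and blood markers summed to at most 12.1 and 3.71 FPKM, with Cdh5, Hba-a1, Hbb-b1 and Cd3e listed at 0. The part of these cell types in the levels of the lipid droplet genes was not tested.

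Pnpla3 was the most abundant of the 10 transcripts in WT oocytes and next to the least abundant in Pabpn1-null oocytes. Pnpla3 encodes a patatin-like lipase of droplets that in human cells binds the co-activator of Pnpla2 and is known for its link to liver fat. WT samples 1 to 3 held 63.1, 60.3 and 81.9 FPKM, against 0.780, 0.794 and 0.666 FPKM in null samples 1 to 3. Each null sample was below 1 FPKM and the genotypes were 59.6 FPKM apart at their nearest. The means were 68.5 ± 11.8 and 0.747 ± 0.0700 FPKM (SD, n = 3 each), so that 1.09% of the WT level was left, a 91.7-fold difference and a log2 change of -5.31 on the scale of FPKM + 1. Among the 12523 rows Pnpla3 ranked 1751 by its mean level in WT and 11908 in null oocytes. Among 7522 rows with a WT mean of at least 5 FPKM (short RNA genes left out), 9 had a smaller share of their WT level left.

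None of the relatives of Pnpla3 was lower to a like degree in null oocytes. Of the 10 genes, 5 had all null samples above all WT samples (Pnpla2, Pnpla8, Plin2, Dgat1 and Dgat2), where 33.3% of all tested rows did. In 3 genes all null samples were below all WT samples (Pnpla3, Abhd5 and Plin3), as in 24.7% of all rows, and in Pnpla6 and Pnpla7 the genotypes overlapped. Together 8 of 10 did not overlap, against 58.0% of all rows, while 48.1% of all rows passed the limma test used below. Because the rule used this contrast, nothing is read from these counts. The median log2 change was 0.43 over the 10 genes and 0.08 over all rows.

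**Figure D1:**
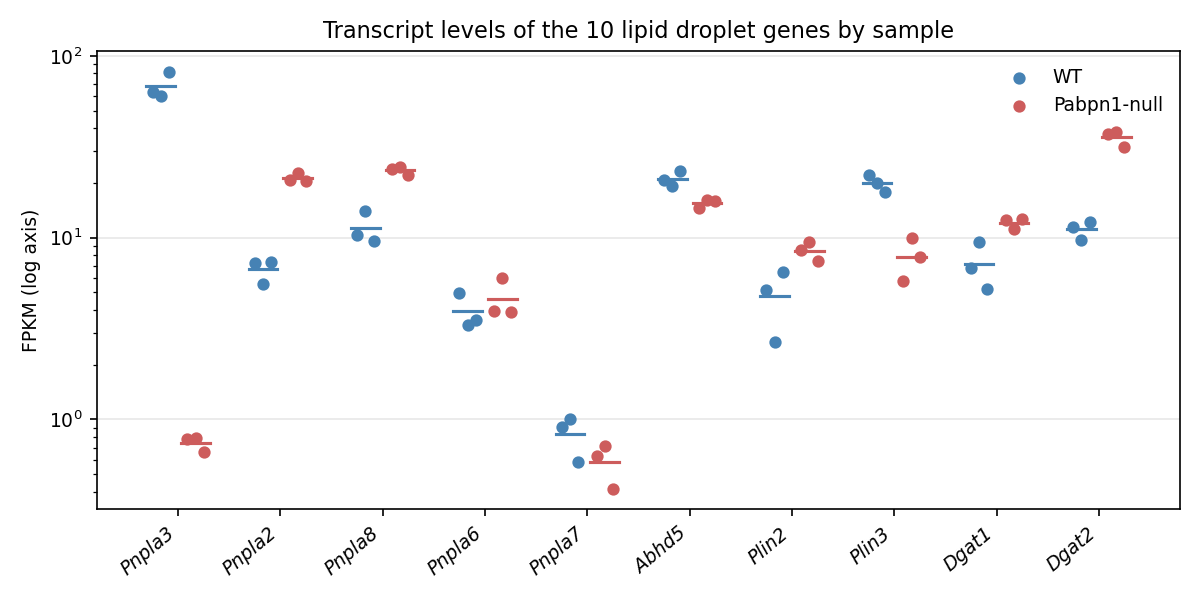
FPKM of each of the 10 genes in the 3 WT (blue) and 3 Pabpn1-null (red) samples on a log axis; points are samples and short lines are group means. Pnpla3 lies at 60.3 to 81.9 FPKM in WT and under 1 FPKM in every null sample, while the null samples of Pnpla2, Pnpla8, Plin2, Dgat1 and Dgat2 lie above the WT samples.

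Pnpla2, the adipose triglyceride lipase that opens triglyceride breakdown, was at 7.27, 5.55 and 7.35 FPKM in WT and at 20.7, 22.8 and 20.5 FPKM in null oocytes. The lowest null sample stood 13.2 FPKM above the highest WT sample. Its mean was 3.18-fold higher in null oocytes (6.72 ± 1.02 against 21.4 ± 1.28 FPKM, SD, n = 3 each).

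Pnpla8, a phospholipase A2 of mitochondria and peroxisomes, was at 10.4, 14.0 and 9.63 FPKM in WT and at 23.9, 24.5 and 22.0 FPKM in null oocytes. The genotypes were separated by 8.05 FPKM and the mean was 2.07-fold higher in null oocytes.

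Pnpla6 and Pnpla7 are a closely related pair of esterases of the endoplasmic reticulum that cleave lysophosphatidylcholine. Pnpla6 was at 4.95, 3.32 and 3.51 FPKM in WT and at 3.96, 5.99 and 3.89 FPKM in null oocytes, and 1 WT sample lay inside the range of the null samples. Pnpla7 was at 0.910, 1.01 and 0.582 FPKM in WT and at 0.629, 0.711 and 0.417 FPKM in null oocytes. Its mean was the lowest of the 10 in both genotypes, it passed the filter through WT sample 2 alone, and the genotypes overlapped.

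All 6 of these lipase genes that share the patatin fold, Pnpla5 included, carry codons for the motif Gly-X-Ser-X-Gly around the serine of the active site. A search of the coding sequence of 1 transcript per gene (the longest coding sequence in GENCODE vM1) for GGN-NNN-serine codon-NNN-GGN in frame found it exactly 1 time in each, against at least 1 time in 17.6% of 22594 coding genes. The windows are shown because they set the gene with the low level beside its relatives. They run 5′ to 3′ along the coding strand in mm9, with the 15 motif bases in capitals.
Pnpla3, exon 1, codon 45, chr15:83998430-83998459 (+): ttctttGGCTGCTCGGCCGGTgcactgcac
Pnpla5, exon 1, codon 47, chr15:83953382-83953411 (-): ttctatGGCTCCTCCTCAGGGgcactcaat
Pnpla2, exon 1, codon 45, chr7:148641312-148641341 (+): atctacGGAGCCTCGGCAGGGgcgctcacc
Pnpla8, exons 5 and 6, codon 475, chr12:45391629-45396895 (+): atctgtGGAGTAAGCACAGGGgccatatta
Pnpla6, exon 27, codon 964, chr8:3536924-3536953 (+): gtgggaGGCACATCCATAGGTtccttcatt
Pnpla7, exon 26, codon 981, chr2:24903189-24903218 (+): atcggaGGCACATCCATCGGGgctttcatg
The codon is that of the first glycine, and the window of Pnpla8 is spliced across an intron. Pnpla1, a further patatin-like gene, was left out here. Over 151 bases centred on the motif, with no gaps, Pnpla3 was identical to Pnpla5 at 57.0% of positions and to Pnpla2 at 45.7%. Identity with Pnpla7, Pnpla6 and Pnpla8 was 31.8%, 31.1% and 27.8%.

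The makeup of the family differed between the genotypes. The table holds 7 patatin-like genes, the 5 above with Pnpla1 and Pnpla5, neither of which is among the 10. Pnpla3 made up 70.4%, 69.3% and 76.3% of their summed FPKM in WT, against 1.38%, 1.25% and 1.21% in null oocytes. Pnpla2 went from a mean of 7.11 ± 0.900% to 36.7 ± 0.679%, and Pnpla8 from 12.2 ± 3.57% to 40.4 ± 1.82% (SD, n = 3). Pnpla5 went from 1.93 ± 0.165% to 10.4 ± 1.70%. The sum of the 7 was 94.7 ± 11.1 FPKM in WT and 58.2 ± 4.52 FPKM in null oocytes, and without Pnpla3 it was 26.2 ± 0.691 and 57.5 ± 4.47 FPKM. These shares are ratios within a sample and do not depend on a scaling factor per sample.

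**Figure D2:**
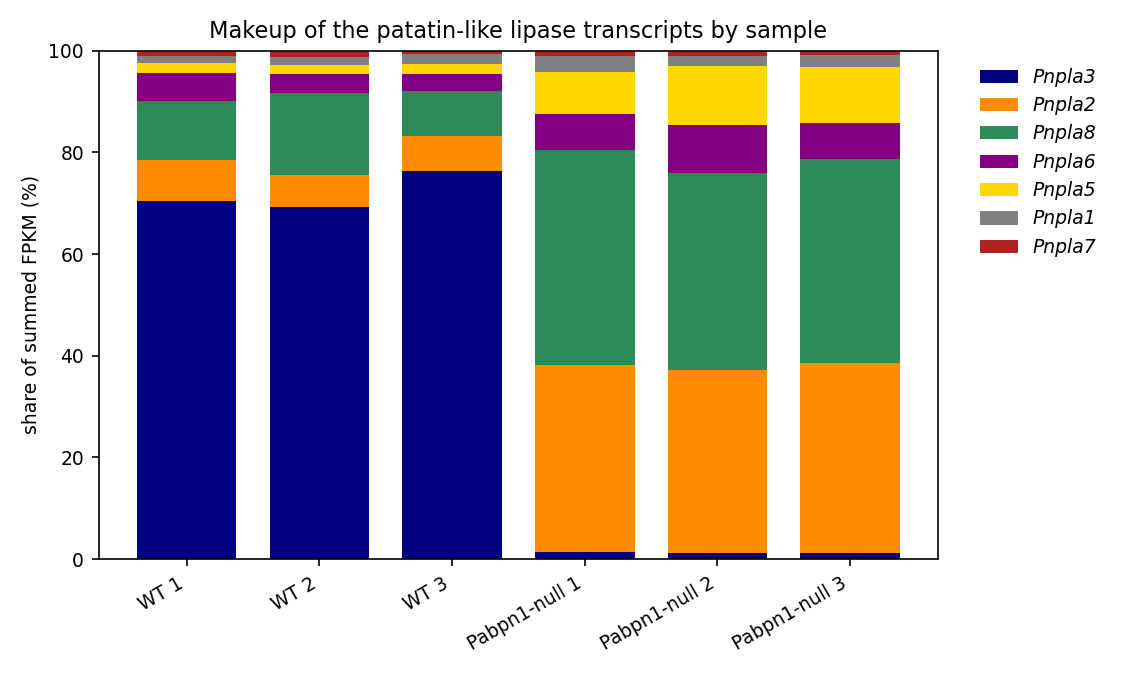
Share of each of the 7 patatin-like genes in their summed FPKM (percent) for each WT and Pabpn1-null sample, as stacked bars. Pnpla3 takes 69.3% to 76.3% of each WT bar and 1.21% to 1.38% of each null bar, where Pnpla2 and Pnpla8 take most of the rest.

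Abhd5, which activates Pnpla2 at the droplet surface, was lower where its partner was higher. It was at 20.6, 19.1 and 23.3 FPKM in WT and at 14.6, 16.1 and 15.9 FPKM in null oocytes, with the groups 3.0 FPKM apart. The null mean was 73.8% of the WT mean (21.0 ± 2.12 against 15.5 ± 0.852 FPKM, SD, n = 3 each). The ratio of Pnpla2 to Abhd5 within a sample was 0.352, 0.290 and 0.315 in WT and 1.42, 1.41 and 1.29 in null oocytes, so that the lipase transcript passed that of its co-activator in every null sample and in no WT sample.

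The perilipins Plin2 and Plin3 differed between the genotypes in opposite directions. Plin2, the coat protein of droplets in most cells outside fat tissue, was at 5.15, 2.67 and 6.44 FPKM in WT and at 8.56, 9.41 and 7.40 FPKM in null oocytes. Its genotypes were only 0.960 FPKM apart, with a wide spread in WT (4.75 ± 1.92 against 8.46 ± 1.01 FPKM, SD, n = 3 each, 1.78-fold). Plin3, which binds to small new droplets from a pool in the cytosol, was at 22.1, 19.9 and 17.8 FPKM in WT and at 5.76, 9.99 and 7.84 FPKM in null oocytes, where 39.5% of the WT level was left. The ratio of Plin2 to Plin3 was 0.233, 0.134 and 0.363 in WT and 1.49, 0.942 and 0.944 in null oocytes. Plin3 thus led in every WT sample, whereas in null oocytes Plin2 led in sample 1 and the pair was near equal in the other two. Of the other perilipins, Plin1 was listed at 0 in all samples, and Plin4 and Plin5 did not pass the filter. The summed FPKM of all 5 was 25.0 ± 2.43 in WT and 16.4 ± 2.66 in null oocytes.

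The transcripts of both enzymes that complete triglycerides were higher in null oocytes. Dgat2, the acyltransferase that works at the endoplasmic reticulum and the droplet surface, was at 11.5, 9.76 and 12.2 FPKM in WT and at 37.3, 38.3 and 31.5 FPKM in null oocytes. The mean differed 3.20-fold (11.2 ± 1.27 against 35.7 ± 3.65 FPKM, SD, n = 3 each) and the groups were 19.3 FPKM apart, the widest gap of the 10 after that of Pnpla3. Dgat1, the enzyme of the endoplasmic reticulum unrelated to it in sequence, was at 6.83, 9.50 and 5.21 FPKM in WT and at 12.5, 11.1 and 12.7 FPKM in null oocytes, 1.69-fold higher with a gap of 1.61 FPKM. Their sum went from 18.3 ± 0.904 to 47.8 ± 3.08 FPKM. The ratio of Dgat1 to Dgat2 was 0.596, 0.973 and 0.425 in WT and 0.335, 0.290 and 0.404 in null oocytes, close to overlap.

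In WT oocytes the order of levels was Pnpla3, Abhd5, Plin3, Pnpla8, Dgat2, Dgat1, Pnpla2, Plin2, Pnpla6 and Pnpla7. The ranges of the 3 samples overlapped between the neighbours Abhd5 and Plin3, between Pnpla8 and Dgat2, and between each neighbouring pair from Dgat1 to Pnpla6. In null oocytes it was Dgat2, Pnpla8, Pnpla2, Abhd5, Dgat1, Plin2, Plin3, Pnpla6, Pnpla3 and Pnpla7. There the ranges of Pnpla8 and Pnpla2 overlapped, as did those of Plin2 and Plin3, of Plin3 and Pnpla6, and of Pnpla3 and Pnpla7. Pnpla3 thus went from the top of the order to a range that overlapped that of Pnpla7, and Dgat2 from the middle to the top. Within each null sample Pnpla3 was still above Pnpla7 (0.780 against 0.629, 0.794 against 0.711 and 0.666 against 0.417 FPKM).

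The ratio that differed most was that of Pnpla3 to Pnpla2. Within a sample it was 8.69, 10.9 and 11.1 in WT, whereas Pnpla2 exceeded Pnpla3 by 26.6-fold, 28.7-fold and 30.8-fold in the null samples, a difference of -8.19 in the mean log2 ratio. The ratio of Pnpla6 to Pnpla7 was 5.44, 3.30 and 6.02 in WT and 6.30, 8.42 and 9.32 in null oocytes. The gap between the genotypes was narrow there and for Dgat1 to Dgat2.

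**Figure D3:**
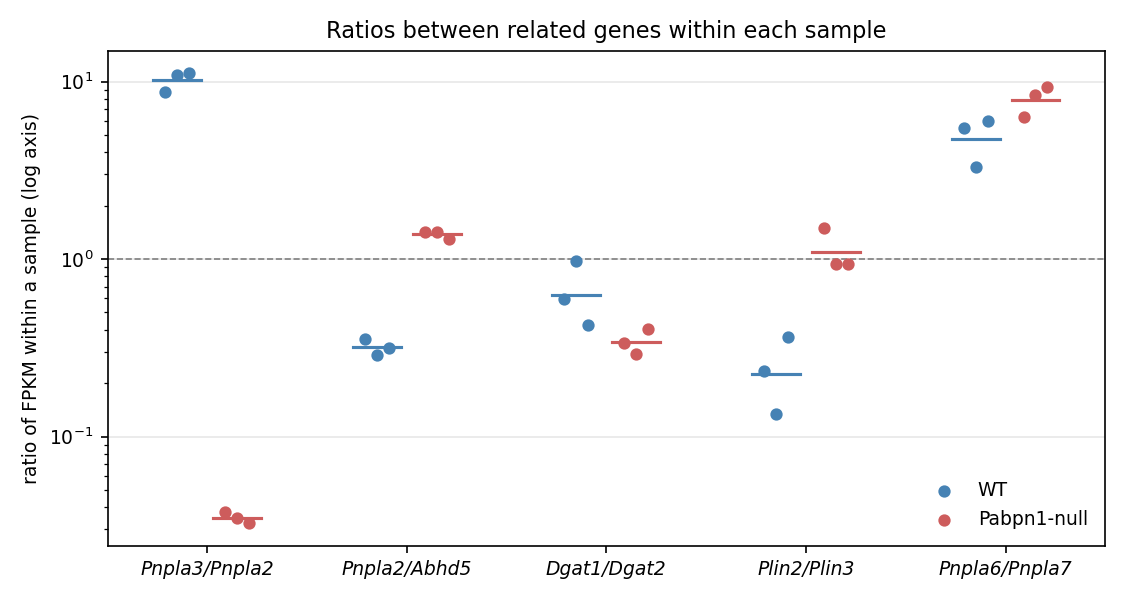
Ratio of FPKM between 2 of the 10 genes within each sample, on a log axis, for WT (blue) and Pabpn1-null (red); points are samples, short lines geometric means, and the dashed line marks equal levels. Pnpla3/Pnpla2 lies at 8.69 to 11.1 in WT and far below 1 in null oocytes, and Pnpla2/Abhd5 lies below 1 in WT and above 1 in null oocytes.

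The size of each change depends on how the samples are scaled. The study's methods state a further scaling to spike-in RNA, and the factors that turn the table's values into the means of its supplementary list of 2-fold changes were used as 1 of 4 other scalings. They moved the median log2 change of all rows from 0.08 to -0.38. With them Pnpla2 and Dgat2 stayed above WT (2.16-fold each) and Pnpla3, Plin3, Abhd5 and also Pnpla7 lay below, whereas Pnpla8, Plin2 and Dgat1 overlapped, at 1.37-fold, 1.22-fold and 1.12-fold. Under quantile normalization Plin2 also overlapped (highest WT sample 7.47, lowest null sample 7.10 FPKM), and Pnpla7 lay below WT. Pnpla6 had no fixed direction, from -0.25 to 0.36 on the log2 scale over the 5 scalings. The other 9 kept their direction under all 5. Relative to the median of all rows, Pnpla3 changed by -5.42 to -5.35, Pnpla2 by 1.37 to 1.48, Dgat2 by 1.44 to 1.54, Pnpla8 by 0.81 to 0.92, Plin3 by -1.39 to -1.30 and Abhd5 by -0.57 to -0.47. Plin2 changed by 0.54 to 0.66 and Dgat1 by 0.53 to 0.60 on that scale.

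**Figure D4:**
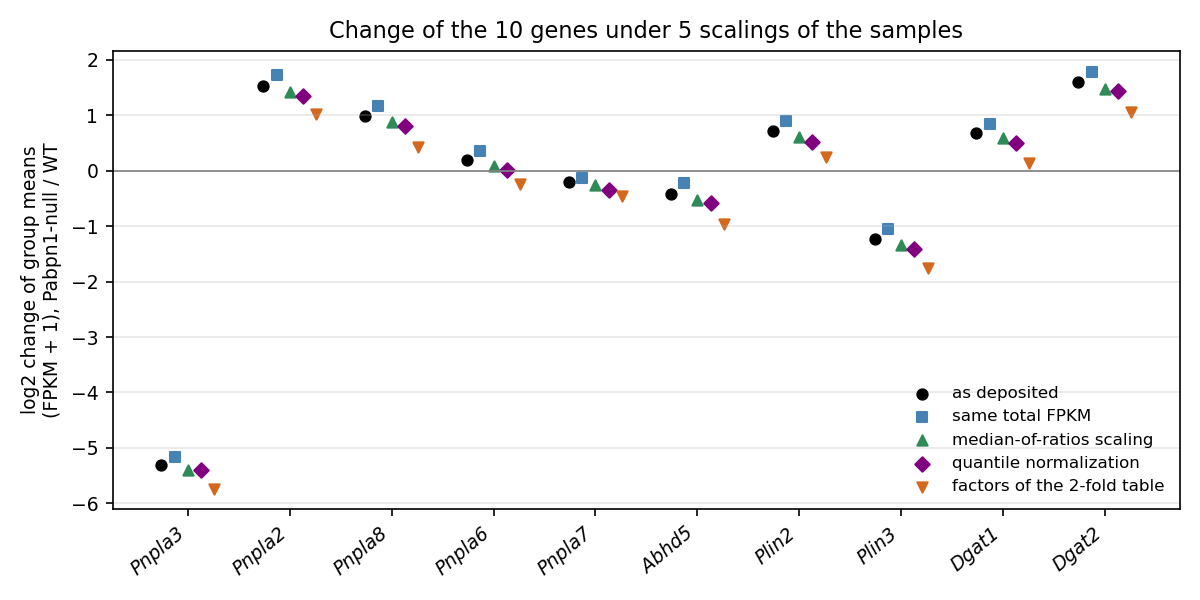
Log2 change of group means of FPKM + 1 (Pabpn1-null over WT) for the 10 genes, with values as deposited and under 4 other scalings of the samples, each with its own marker. Pnpla3 stays between -5.73 and -5.17, and Pnpla6 is the gene whose sign changes.

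The transcripts differed widely in their untranslated ends. In the transcript with the longest coding sequence, the 3′ untranslated region (UTR) was 3427 nt in Pnpla3, 73.9% of the transcript and the longest of the 10. It was 1922 nt in Abhd5, 1075 nt in Pnpla2, 883 nt in Dgat2 and 770 nt in Plin3, 645 nt in Pnpla8 and 468 nt in Plin2, and 221 to 264 nt in Dgat1, Pnpla6 and Pnpla7. The 5 longest were those of Pnpla3, Abhd5 and Plin3, which were lower in null oocytes, and of Pnpla2 and Dgat2, which were higher. Pnpla8, Plin2 and Dgat1, also higher, had shorter ones. A link between UTR length and direction of change was not tested. Since reverse transcription started at poly(A) tails, 1 form of the signal for polyadenylation was looked up. The letters AATAAA stood in the last 40 bases of 7 of the 10 transcripts and of 51.0% of the 22594. Pnpla2, Pnpla8 and Plin2, all higher in null oocytes, lacked these letters there. The other form named in the paper, AUUAAA, was not searched, so the lookup does not show that these ends lack a signal. Whether the match goes with the direction of change was not tested. A match is a description of the annotated end and not of the end used in oocytes. The windows are given for 2 genes that were lower and 2 that were higher, 5′ to 3′ on the transcript strand in mm9, with AATAAA in capitals.
Pnpla3, exon 8, chr15:84019912-84019941 (+): gaacaaaaaacaAATAAAtgtgattttttt
Plin3, exon 8, chr17:56418393-56418422 (-): cagtattgccttAATAAAttttatatgcat
Dgat2, exon 8, chr7:106302173-106302202 (-): tattcctagactAATAAAtggaaacaagaa
Dgat1, exon 17, chr15:76332450-76332479 (-): gctgagggtatcAATAAAgtgctgtctaaa
These 4 genes were taken from among those with a match, which lies 19, 26, 18 and 23 bases from the end to the first A, in that order. The authors' reads were cut to 50 bases and only uniquely mapped ones were kept. Of all 50-base words, 0.131% of Pnpla3 and 1.09% of Plin3 also occurred in coding transcripts of other genes, and none of those of the other 8 genes did.

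Pnpla3 spans chr15:83998246-84019942 (mm9, plus strand), and its neighbours differed between the genotypes in both directions. Pnpla5, a patatin-like lipase that starts 44640 bases away on the other strand, was at 1.68, 1.56 and 2.27 FPKM in WT and at 4.76, 7.38 and 6.02 FPKM in null oocytes. Its log2 change was 1.30 (SE 0.21, adjusted p = 0.000932, limma). Sult4a1, a sulfotransferase gene beyond it at 62061 bases, was lower by a log2 change of -0.90 (SE 0.21, adjusted p = 0.0059, limma), from 4.66 ± 0.723 to 2.05 ± 0.577 FPKM (SD, n = 3). Samm50, whose protein helps insert others into the outer mitochondrial membrane, starts 2720 bases past the end of Pnpla3 and was at 19.2, 16.1 and 17.4 FPKM in WT and at 14.8, 18.1 and 10.9 FPKM in null oocytes. Its genotypes overlapped (adjusted p = 0.277, limma), but with the factors of the 2-fold table it was called lower (log2 change -0.80, adjusted p = 0.0156, limma). Parvb, the next gene, was under 0.1 FPKM in every sample and was not tested. Of all tested rows, 27.9% were called higher and 20.2% lower, at an adjusted p under 0.05.

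The rows whose profile over the 6 samples was nearest to that of Pnpla3, by the distance between log2 values centred on the WT mean among 7521 rows, included Olfr995, Dcpp2, Pabpn1 and Anxa5. Their distances were 1.98, 2.0, 2.79 and 3.01 log2 units. Anxa5, a membrane-binding annexin, was near Pnpla3 in WT level, at 47.7, 74.3 and 82.8 FPKM, and kept 4.36, 4.43 and 5.05 FPKM in null oocytes. Olfr995, an olfactory receptor gene, went from 17.6 to 22.8 FPKM in WT to 0.529 FPKM in 1 null sample and was listed at 0 in the other 2. Dcpp2 was at 19.0 to 23.2 FPKM in WT and at 0.194 to 0.214 FPKM in null oocytes. Olfr995 and Dcpp2 belong to families with near copies, so their values are uncertain.

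Other genes of lipid metabolism were taken from 7 lists of 140 symbols in all, written from general knowledge. Of these, 97 were tested and 35 (36.1%) were called higher and 18 (18.6%) lower in Pabpn1-null oocytes, against 27.9% and 20.2% of all rows. Those shares of all rows apply to the counts of each list below as well. The median log2 change was 0.19 over the 97 and 0.09 over all rows. Among the called genes, Lipe, Gpam, Acads, Acaca and Acss2 passed the filter only through null samples, and Ppard and Slc27a2 only through WT samples. That left little room for a call in the other direction. With samples scaled to the same total FPKM the split was 38 higher and 11 lower, and with the factors of the 2-fold table it was 12 higher and 27 lower. Over all rows, 3491 were higher and 2535 lower, as against 4327 and 1778 with the same total and 1177 and 4445 with the factors. Of the 53 lipid calls, 36 held when each sample was left out in turn, and 23 held under those and under all 4 other scalings. Among the genes named below, the factors ended the calls of Nceh1, Lipe, Agpat1, Agpat2, Acsl1, Osbpl2, Hadha, Elovl1, Cd36 and Acbd5, and the same total those of Ddhd2, Agpat9, Acsl3, Hsd17b13, Soat1, Etfa and Ppard. With the factors 30 of the 53 calls held. They also ended the calls of Aup1, Faf2, Vcp, Copa and Arf1 among the droplet genes and of Hadh, Acaa2 and Crat in oxidation. In fatty acid synthesis they ended those of Elovl5, Mlxipl, Mlx, Me1 and Acss2 as well. Without the filter on low values 39 of the 53 calls held, and those of Lipe, Ddhd2, Agpat9, Agpat2, Hsd17b13, Ppard, Dbi, Acbd3 and Acbd5 among the genes named below did not.

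Of the partners of lipolysis and other lipases, 5 of 12 were called lower, 2 higher and 5 not called. Lpl, the lipoprotein lipase, was at 18.0, 18.6 and 19.8 FPKM in WT and at 5.22, 5.38 and 7.54 FPKM in null oocytes, a log2 change of -1.50 (SE 0.18, adjusted p = 0.00022, limma). Ddhd1, a phospholipase that acts on phosphatidic acid, was also lower (21.0 ± 6.59 to 6.87 ± 0.636 FPKM, SD, n = 3). Its relative Ddhd2, a triglyceride lipase, was at 16.6 ± 5.66 and 9.05 ± 1.92 FPKM, and that call was lost without WT 1, WT 2, null 1 or null 3 (adjusted p = 0.0688 to 0.112, limma). Aadac, an arylacetamide deacetylase, and Hilpda, an inhibitor of Pnpla2, were at 94.8 ± 22.3 and 38.3 ± 1.66 FPKM in WT and at 52.4 ± 2.29 and 23.6 ± 4.03 FPKM in null oocytes. The higher genes were Nceh1, a cholesterol ester hydrolase (59.6 ± 10.7 to 112 ± 16.4 FPKM), and Lipe, the hormone-sensitive lipase that follows Pnpla2. Lipe was low, at 0.319 ± 0.0696 and 1.24 ± 0.695 FPKM, and passed the filter through null sample 2 alone. The call of Lipe was lost without WT 2 (adjusted p = 0.0679, limma). The monoglyceride lipase gene Mgll, named here after its values were seen, was listed at 0 in all 6 samples.

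Among the enzymes of triglyceride synthesis upstream of Dgat1 and Dgat2, 5 of 13 were higher, 2 lower and 6 not called. Agpat6, which encodes a glycerol-3-phosphate acyltransferase of the endoplasmic reticulum, was at 13.8, 14.0 and 12.9 FPKM in WT and at 32.6, 36.6 and 26.3 FPKM in null oocytes, a log2 change of 1.16 (SE 0.17, adjusted p = 0.000525, limma). Agpat1 and Agpat2, which add the next acyl chain, went from 9.79 ± 2.23 to 22.1 ± 3.41 FPKM and from 43.1 ± 13.8 to 78.6 ± 5.40 FPKM. Acsl1, an acyl-CoA synthetase, went from 13.5 ± 3.35 to 28.0 ± 3.98 FPKM, and Gpam, the mitochondrial glycerol-3-phosphate acyltransferase, from 0.113 ± 0.0342 to 1.84 ± 0.288 FPKM. Acsl3, an acyl-CoA synthetase of nascent droplets, was lower at 72.6 ± 4.0 against 51.5 ± 2.42 FPKM, a call lost without null 3 (adjusted p = 0.0516, limma). Agpat9 was at 11.3 ± 2.31 and 6.89 ± 1.41 FPKM, and its call was lost when any sample but WT 1 was left out (adjusted p = 0.0624 to 0.138, limma) and with the replicate block.

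Of the genes for droplet formation and surface proteins, 8 of 25 were higher, 4 lower and 13 not called. Lpcat1, an acyltransferase of the phospholipid monolayer, was at 39.4, 35.9 and 58.6 FPKM in WT and at 148, 135 and 142 FPKM in null oocytes, a log2 change of 1.68 (SE 0.18, adjusted p = 0.000146, limma). Copb1, a coat subunit of the COPI vesicles that reach droplets, and Osbpl2, a lipid-binding protein, went from 49.2 ± 7.34 to 121 ± 6.46 and from 11.8 ± 0.631 to 24.9 ± 1.56 FPKM. Nsdhl, a sterol enzyme found on droplets, was lower (36.9 ± 6.90 to 13.2 ± 1.55 FPKM). Acat2, counted in this list but an acetyl-CoA acetyltransferase and not a droplet protein, was also lower (4.29 ± 0.448 to 1.34 ± 0.321 FPKM). Hsd17b13, a droplet dehydrogenase, and Soat1, which makes sterol esters, were at 31.9 ± 3.05 and 16.9 ± 2.11 FPKM in WT and at 20.9 ± 3.63 and 10.9 ± 0.263 FPKM in null oocytes. The call of Hsd17b13 was lost without null 1 or null 2 (adjusted p = 0.0534 to 0.0855, limma) and that of Soat1 without null 1 or null 3 (adjusted p = 0.052 to 0.0632, limma). Bscl2, which encodes the droplet assembly protein seipin and is named after its values were seen, was at 294 and 261 FPKM on average and was not called (adjusted p = 0.402, limma).

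Genes of fatty acid oxidation were higher in 7 of 19, lower in 3 and not called in 9. Cpt2, the inner-membrane carnitine palmitoyltransferase, was at 32.2, 23.8 and 33.4 FPKM in WT and at 78.2, 66.6 and 77.4 FPKM in null oocytes, a log2 change of 1.30 (SE 0.17, adjusted p = 0.000277, limma). Hadha, a subunit of the mitochondrial trifunctional protein, went from 10.6 ± 2.17 to 24.9 ± 5.31 FPKM. Echs1, the enoyl-CoA hydratase of short chains, went the other way, from 53.5 ± 10.2 to 18.6 ± 1.93 FPKM. Acadm, a dehydrogenase of medium chains, was at 31.4 ± 2.15 and 17.6 ± 2.81 FPKM, and Etfa, an electron carrier subunit, at 145 ± 13.5 and 105 ± 4.93 FPKM, with the call of Etfa lost without null 1 (adjusted p = 0.0696, limma).

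Fatty acid synthesis and its regulators had 10 of 19 higher, 1 lower and 8 not called. Mbtps1, a protease that processes sterol regulatory element-binding proteins, was at 8.02, 7.68 and 5.36 FPKM in WT and at 20.6, 28.0 and 16.8 FPKM in null oocytes, a log2 change of 1.49 (SE 0.22, adjusted p = 0.000657, limma). Srebf1, which encodes such a protein and is known in liver to drive Pnpla3, went from 4.21 ± 0.621 to 11.3 ± 3.55 FPKM. Nr1h2, a liver X receptor gene, went from 9.49 ± 1.71 to 28.6 ± 6.53 FPKM, and Elovl1, a fatty acid elongase, from 79.5 ± 16.9 to 160 ± 10.6 FPKM. The lower gene was Ppard, a nuclear receptor for fatty acids, at 1.48 ± 0.467 and 0.675 ± 0.147 FPKM, whose call was lost without WT 1, WT 2, null 1 or null 3 (adjusted p = 0.0598 to 0.114, limma).

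For fatty acid uptake and transport, 2 of 7 were higher, 3 lower and 2 not called. Slc27a2, a fatty acid transporter and acyl-CoA synthetase, was at 3.91, 4.37 and 5.60 FPKM in WT and at 0.376, 0.196 and 0.166 FPKM in null oocytes, a log2 change of -2.17 (SE 0.19, adjusted p = 5.37e-05, limma). Dbi, the acyl-CoA binding protein, and Acbd3 of the same domain family were at 315 ± 33.0 and 68.5 ± 20.4 FPKM in WT and at 198 ± 37.3 and 38.1 ± 3.80 FPKM in null oocytes. Cd36, a fatty acid receptor, was higher (14.2 ± 1.36 to 29.2 ± 5.73 FPKM). Acbd5, a peroxisomal acyl-CoA binding protein, was at 12.7 ± 3.48 and 19.6 ± 2.54 FPKM, and its call was lost when any sample but WT 2 was left out (adjusted p = 0.0606 to 0.123, limma).

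**Figure D5:**
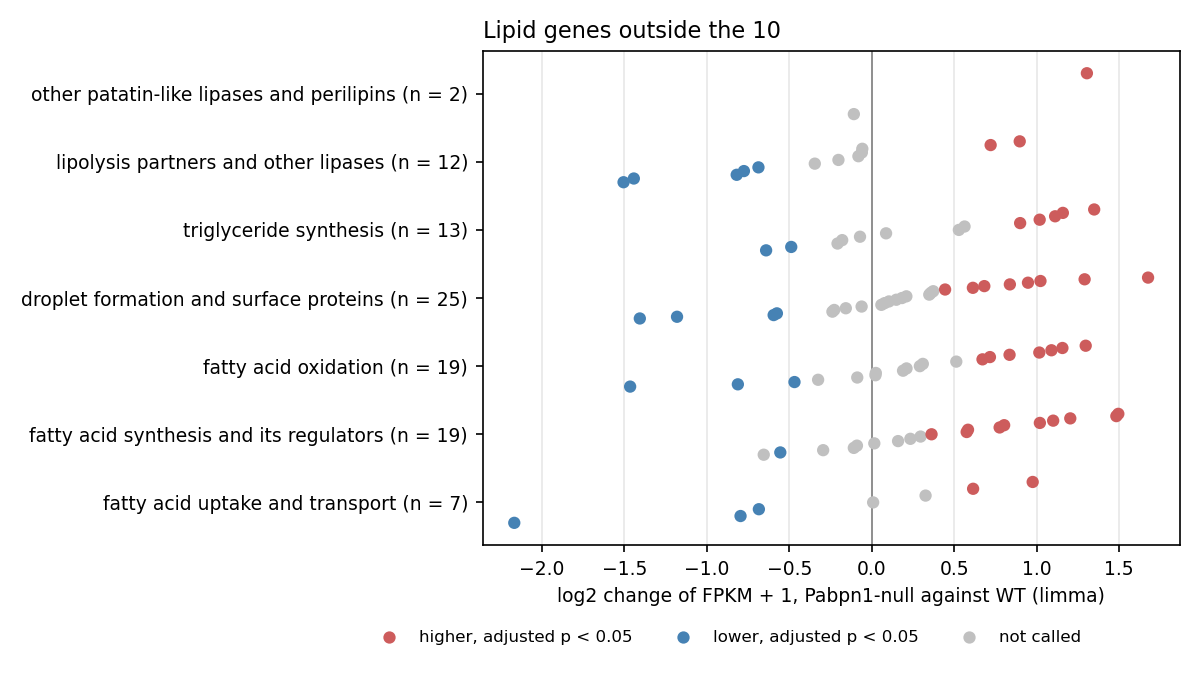
Log2 change of FPKM + 1 (Pabpn1-null against WT, limma) of the 97 tested lipid genes outside the 10, 1 row of points per list; red and blue points passed an adjusted p under 0.05 and grey points did not. Higher genes outnumber lower ones 35 to 18 with the values as deposited, but 12 to 27 with the factors of the 2-fold table, under which Arf1 and Me1 change sign.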

How the data were processed

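RNA of 6 samples was measured by Smart-seq2, with 150-base read pairs. Per the methods, the authors cut reads to 50 bases, mapped them to mm9 with TopHat2 2.1.1 and computed FPKM of uniquely mapped reads per UCSC gene model with Cufflinks 2.2.1. The deposited table holds FPKM with 1 added by the authors, and 1 was subtracted here. Whether the counting used strand is not given in the sources used here, so overlapping and antisense genes are uncertain. Samples were grouped by the genotype in their labels. The count behind an FPKM is unknown, so no counting interval is given, and p-values reflect the spread of these samples, which may be technical.

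The 12523 rows that exceeded 1 FPKM in any sample entered a limma fit (version 3.58.1 under R 4.3.3; moderated by eBayes with its trend option) of log2(FPKM + 1) on genotype. Their p-values were adjusted together by the Benjamini-Hochberg method and called at 0.05. The step was run on simulated data with a small share of changed rows, balanced in direction, and no scaling error between samples. That run therefore does not cover the dependence on scaling. Fold changes on the log2(FPKM + 1) scale understate the change of low genes. The 10 genes, the lists and the naming rule were chosen with earlier results of these data known. From each list, up to 4 genes with the largest log2 change are named (called, averaging 5 FPKM or more, without overlap of the genotypes), and all genes of a count of 5 or fewer. Results for 2 genes that the naming rule covers are not given. Of the listed lipid symbols, 136 were in the table. Gene positions and sequences came from GENCODE vM1 on NCBIM37, which is mm9, read in Python. The alternatives were 4 scalings, 0.1 as pseudocount, dropping the filter or raising it to 5 FPKM on average, leaving out each sample, the replicate block, and eBayes without trend or with robust estimation.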

Additional observations from a re-analysis of the deposited data

How the results depend on the processing

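With the factors of the 2-fold table, 12 of the lipid genes outside the 10 were higher, and 1177 of all rows were higher and 4445 lower. The same factors gave Pnpla3 a log2 change of -5.73 and turned Arf1 (log2 change -0.11, adjusted p = 0.64, limma) and Me1 (-0.19, adjusted p = 0.455, limma), which are named here only for that. The same total FPKM left 11 lipid genes lower. A pseudocount of 0.1 gave Pnpla3 a log2 change of -6.34, since its level in null oocytes was under 1 FPKM. Median-of-ratios scaling and quantile normalization gave 2955 higher and 3006 lower, and 2894 higher and 3021 lower rows. Leaving out 1 sample at a time gave 26 to 32 lipid genes higher and 12 to 18 lower, 2528 to 3402 rows higher and 1737 to 2750 lower, and a log2 change of Pnpla3 of -5.40 to -5.17. The cause of these shifts was not tested. No other setting moved a count by over 1.5 times, and Pnpla5 and Sult4a1 kept their calls in the 15 alternatives that tested them.

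Deviations from the group means of same-numbered samples had correlations of -0.014, -0.015 and 0.060 across rows. Between differently numbered samples the correlations were -0.060 to 0.060. With 3 samples per genotype these values cannot show whether samples were collected or prepared as pairs, and the labels do not say. With the replicate block, 35 lipid genes were higher and 17 lower, and 3478 rows higher and 2528 lower; among lipid genes the block ended the call of Agpat9 alone. The table holds no counts, so depth sets no stated limit here, but levels under 1 FPKM, as of Pnpla3 in null oocytes, Pnpla7, Lipe and Gpam in WT, lie below the filter's 1 FPKM, and the number of reads behind them is unknown.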

Other observations

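Several genes of fat storage were at or near 0 in these oocytes, whereas others of the same lists were not. Among the latter, Agpat2, Hsd17b13 and Fitm2 averaged 43.1, 31.9 and 3.91 FPKM in WT oocytes. Fitm1, Mogat2, Fabp1 and Plin1, which act in droplet growth, monoacylglycerol esterification, fatty acid binding and the coat of adipocyte droplets, were each listed at 0 in all 6 samples. Cidea, Cideb and Cidec, whose proteins fuse droplets in fat and liver cells, did not pass the filter. These genes were picked out after their values were seen. The highest mean levels among the lists in WT oocytes belonged to Arf1, a GTPase that recruits vesicle coats (371 ± 72.0 FPKM in WT and 500 ± 10.9 FPKM in null oocytes, SD, n = 3), Dbi, and Fabp5, a fatty acid binding protein at 311 FPKM in WT and 298 FPKM in null oocytes on average.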
